A study of Rattus norvegicus with 5 samples.

Results

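The comparison described here is the lung of a tolerant female rat against the lung of a normal or moderate male rat, both exposed to acute hypobaric hypoxia, as the authors' deposited table for these libraries gives it. All rats were of the Sprague Dawley strain and were sorted by gasping time, the time to the first gasp at low pressure. The tolerant female first gasped after more than 60 min, and the normal male between 15 and 20 min. After a week of acclimatization both were held for 1 h at a simulated 9144 m at constant temperature. The series holds 5 libraries in all, 1 in each group, and lung RNA was sequenced in bulk on a Genome Analyser IIx. The other libraries, used below to place each gene, came from a susceptible male that gasped in under 5 min, a tolerant male that gasped after more than 45 min, and a normoxic male that was not screened. The labels give no age and do not say how many animals went into a library. With 1 library in each group there is no replicate spread, so a difference between these libraries cannot be told apart from a difference between individual animals. The tolerant female is also the only female, so tolerance and sex cannot be told apart in this comparison.

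The table holds 610 rows, each with a gene, a signed fold and a p-value corrected for the false discovery rate (FDR). The 33 rows on the X chromosome were left out, and each symbol was counted once per locus, which turned 577 autosomal rows into 561 genes, of the 1764 autosomal genes found in any of the 9 distinct tables of the series. All listed genes had an absolute fold of 2 or more and a corrected p below 0.05, so that being listed is the condition of entry and not a result. The number of genes tested is unknown, and a gene that is absent from the table may be unchanged, unexpressed or short of those limits. Of the 561 genes, 195 were higher in the tolerant female and 366 were lower, which is 34.8% and 65.2% of the listed genes. Among the 435 genes that carried a gene name, 184 were higher (42.3%) and 251 lower (57.7%). The members of the gene groups below carry names, so the shares among named genes are their nearer background. The 126 predicted or unnamed loci were lower in 115 cases. The median fold was 3.06 for the higher genes and 3.24 for the lower ones, and 63 genes had a p stored as exactly 0, which is below the precision of the file.

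A lung under hypoxia meets several transcriptional programmes. Hypoxia-inducible factors (HIF) raise genes of glycolysis and vessel tone, immediate-early genes answer within minutes to stress, stretch and growth factor signals, and the circadian clock runs in most lung cells through activators that bind E-boxes and the Per and Cry repressors that close the loop. The lung also holds lymphocytes, neutrophils and airway secretory cells, and a bulk library mixes all of them. Fewer cells of a type and less RNA per cell cannot be told apart in these data.

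The folds in the tables chain exactly over libraries, so a relative level could be worked out for most genes with the normal male set at 1. All levels below are on that scale, and each rests on the authors' deposited folds. A level with no listed fold against the normal male was derived by way of another library, and it carries no p of its own. The clock and the immediate-early genes stood on one side of the table, and lymphocyte, neutrophil and airway defence genes on the other.

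All 9 clock genes in the table were higher in the tolerant female, of 20 clock symbols looked for, with a median log2 fold of 3.61 (12.2-fold) against −1.30 over all 561 genes. The median rests on the row taken for Bhlhe40, and with the smaller of its 2 rows it was 2.00 (4.01-fold). The group spanned clock repressors (Per1, Per2, Per3, Cry2, Bhlhe40 and Ciart) and output factors of the PAR bZIP family (Dbp, Hlf and Tef). Dbp, a transcription factor whose level follows the clock, was 20.8-fold higher in the authors' deposited table (p stored as 0) and stood at 4.20 in the susceptible male. Per3 was 13.7-fold higher in the authors' deposited table (FDR-corrected p 1.56e-06). Its level was 19.5 in the normoxic male, 6.11 in the susceptible male and 3.75 in the tolerant male, so that the normal male was the lowest and the tolerant female was second to the normoxic male. Hlf, listed under a predicted identifier and 12.2-fold higher by the authors' deposited table (FDR-corrected p 0.000760), had a similar order, at 16.5 in the normoxic and 5.36 in the tolerant male.

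Tef, the third output factor, stood at 4.70 in the normoxic male, 2.33 in the susceptible male, 1.63 in the tolerant male and 4.01 in the tolerant female. Per2, a core repressor, was at 2.62, 1.12, 0.993 and 3.43 in the same order of libraries (FDR-corrected p 8.52e-11 in the authors' deposited table). For Per2 the susceptible, normal and tolerant males lay close together, and the normoxic male and the tolerant female lay above them. Bhlhe40, a repressor that is both a clock gene and a HIF target, differed from the rest. Its level was 14.4 in the susceptible male and 12.8 in the tolerant female and 2.88 in the normoxic male. This is the row with the larger fold (FDR-corrected p 0.00339 in the authors' deposited table), and a second row at the same locus was 3.03-fold higher (p stored as 0), with 0.991 in the normoxic male. The remaining clock genes were Ciart, an inhibitor of the clock activators, at 16.9-fold, Cry2 at 2.53-fold and Per1 at 2.26-fold higher in the authors' deposited table. Cry2 was close to its level in the tolerant female in both the normoxic male (2.44) and the susceptible male (2.12). The time of day at which each lung was taken was not used here, and its part in the clock gene folds was not tested.

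**Figure D1:**
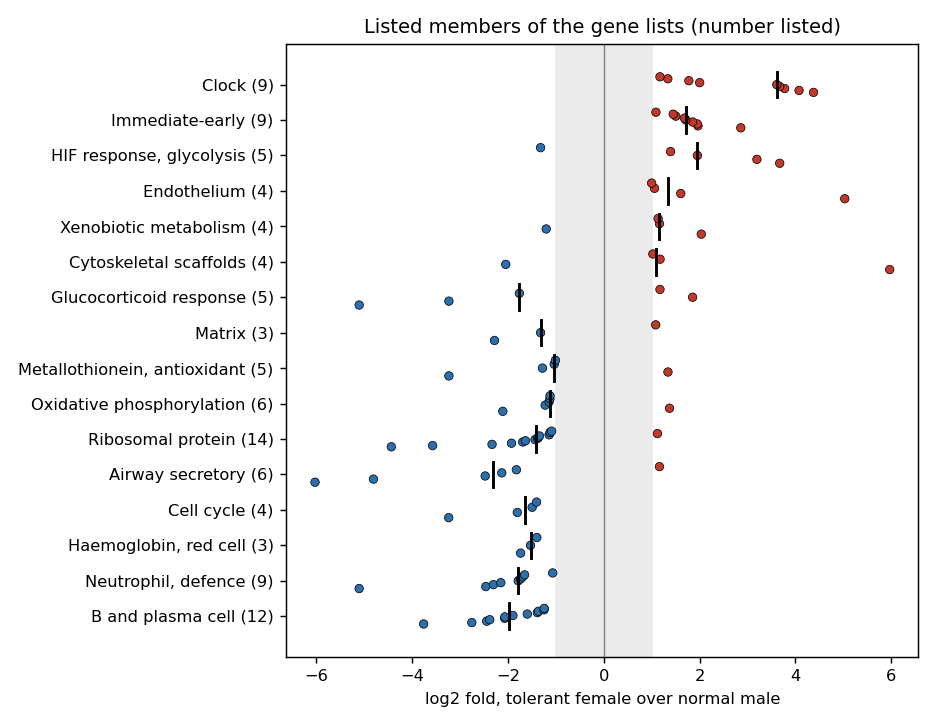
Each point is a listed gene of a gene group, placed by its log2 fold of the tolerant female over the normal male in the authors' deposited table, with the number listed beside the group name and a bar at the group median. The grey band marks folds under 2, which the table leaves out. The 9 clock genes and the 9 immediate-early genes all lie to the right, and the 12 B and plasma cell genes and the 9 neutrophil genes all lie to the left.

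The immediate-early group also lay on the higher side: 9 of 43 symbols were listed and all 9 were higher in the tolerant female, with a median of 3.29-fold. At a fold of at least 4, 1 of these 9 was left (Fos), against 6 of the 9 clock genes. They included transcription factors (Fos, Egr1, Atf3, Crem), phosphatases that switch off MAP kinases (Dusp1, Dusp6), the kinase Sik1 (listed as Snf1lk), the matricellular protein Cyr61 and the endothelial gene Apold1. Fos was 7.27-fold higher in the authors' deposited table (FDR-corrected p 4.18e-11). Its level was 1.69 in the normoxic male, 14.1 in the susceptible male and 4.09 in the tolerant male. The normal male was thus lowest of the 5 libraries, and the susceptible male was highest. Dusp1 was at 1.91, 6.04, 2.64 and 3.62 in the normoxic male, susceptible male, tolerant male and tolerant female, with the same top and bottom library as Fos. Snf1lk followed at 1.37, 6.81, 1.71 and 3.29. For Fos, Dusp1 and Snf1lk the normoxic male lay within 2-fold of the normal male, so no listed fold separated these libraries.

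Egr1, a zinc finger factor induced by growth factors, was 3.87-fold higher in the authors' deposited table (FDR-corrected p 5.03e-09) and reached 3.11 in the susceptible male. A further 3 genes had a normoxic level below that of the normal male. Apold1 stood at 0.165 in the normoxic male and at 3.48, 2.92 and 3.91 in the susceptible male, tolerant male and tolerant female. Atf3, a stress factor, was at 0.530 in the normoxic male and 2.84 in the tolerant female, the highest of the 5 libraries. Crem, a factor of the cAMP pathway, was at 0.618 and 2.13 in these libraries. In the authors' deposited table Cyr61 was 3.22-fold and Dusp6 2.73-fold higher.

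**Figure D2:**
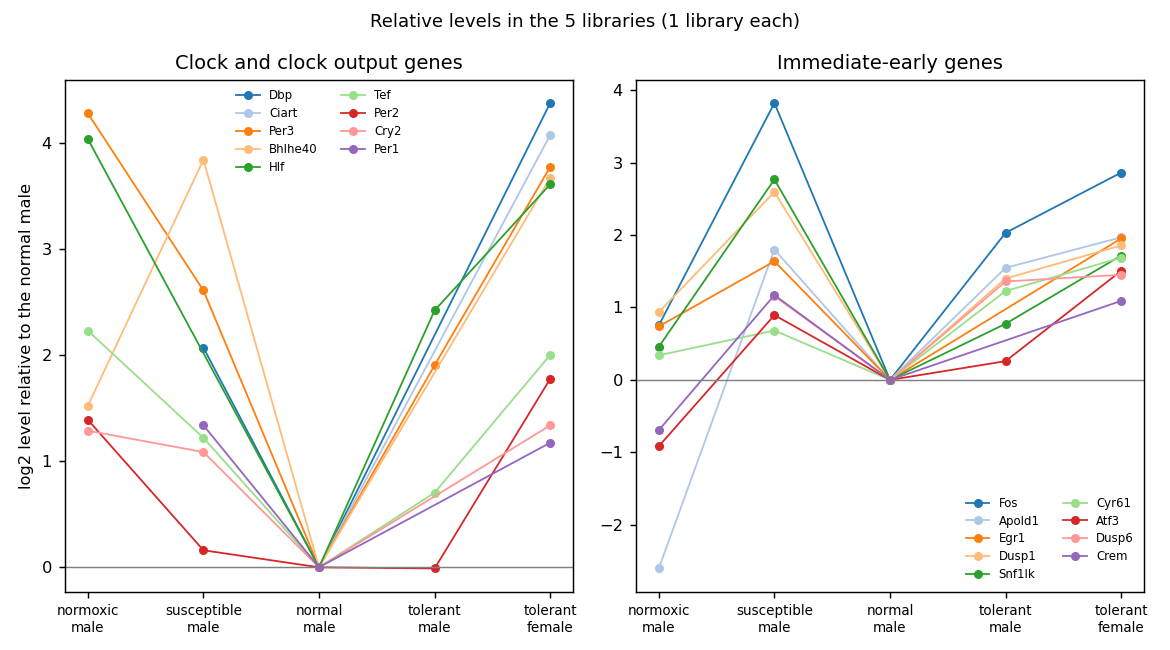
The log2 level of each listed clock gene (left) and immediate-early gene (right) in the 5 libraries is drawn relative to the normal male, which is at 0. Each library is 1 sample, lines only join the points of a gene, and a library without a point has no listed fold for it. Per3 and Hlf are high in the normoxic male and the tolerant female, whereas Fos, Dusp1 and Snf1lk peak in the susceptible male.

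The promoters of these groups were read for short motifs, since E-boxes carry clock control and cAMP response elements (CRE) carry part of immediate-early control. RefSeq windows on build GRCr8 run from 250 bases before to 50 bases after a gene's start, and both strands were searched. The E-box CACGTG lay in 3 of 8 windows of the clock genes (37.5%) against 6.42% of all 33469 windows. The CRE TGACGTCA lay in 3 of 9 windows of the immediate-early genes (33.3%), namely that of Dusp1 and 2 of the 3 windows of Crem, so in 2 of the 7 genes read, against 1.83% of all windows. Fos, Atf3 and Hlf were not read. These are descriptions of few windows and do not show binding. The windows with a match are printed below in lower case, read 5′ to 3′ on the gene's strand, with the E-box in capitals for the clock genes and the CRE or E-box matches in capitals for the immediate-early genes.
Ciart, chr2:186112197-186112496, minus strand: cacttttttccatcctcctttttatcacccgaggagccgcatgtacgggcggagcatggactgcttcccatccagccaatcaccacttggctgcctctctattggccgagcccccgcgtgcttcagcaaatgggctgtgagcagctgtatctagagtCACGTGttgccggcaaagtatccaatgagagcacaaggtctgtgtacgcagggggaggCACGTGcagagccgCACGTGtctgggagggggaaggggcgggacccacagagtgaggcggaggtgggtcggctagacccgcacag
Bhlhe40, chr4:143174200-143174499, plus strand: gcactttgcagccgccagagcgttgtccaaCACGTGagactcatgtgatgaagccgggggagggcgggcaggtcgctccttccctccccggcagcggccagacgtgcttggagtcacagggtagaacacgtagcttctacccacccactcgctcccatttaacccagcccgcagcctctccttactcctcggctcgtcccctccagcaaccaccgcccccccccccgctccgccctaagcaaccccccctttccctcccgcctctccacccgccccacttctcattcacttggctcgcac
Tef, chr7:115206577-115206876, plus strand: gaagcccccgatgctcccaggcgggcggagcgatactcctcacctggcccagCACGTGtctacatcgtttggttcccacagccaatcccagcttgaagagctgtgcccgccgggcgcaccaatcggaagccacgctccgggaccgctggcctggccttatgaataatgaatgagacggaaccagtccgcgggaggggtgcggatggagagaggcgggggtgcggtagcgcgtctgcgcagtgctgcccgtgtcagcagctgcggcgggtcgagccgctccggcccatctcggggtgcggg
Dusp1, chr10:17184603-17184902, plus strand: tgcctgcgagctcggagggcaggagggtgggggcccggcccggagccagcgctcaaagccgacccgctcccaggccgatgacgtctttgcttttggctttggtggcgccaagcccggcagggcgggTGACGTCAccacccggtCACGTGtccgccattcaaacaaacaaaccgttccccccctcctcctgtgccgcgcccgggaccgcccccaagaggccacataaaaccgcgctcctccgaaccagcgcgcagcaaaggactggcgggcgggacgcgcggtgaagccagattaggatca
Crem, chr17:58984547-58984846, plus strand: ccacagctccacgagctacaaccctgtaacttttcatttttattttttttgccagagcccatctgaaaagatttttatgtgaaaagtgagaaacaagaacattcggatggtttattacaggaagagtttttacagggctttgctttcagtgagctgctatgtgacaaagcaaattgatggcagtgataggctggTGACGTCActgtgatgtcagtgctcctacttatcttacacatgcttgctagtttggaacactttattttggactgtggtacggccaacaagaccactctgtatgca
Crem, chr17:58985240-58985539, plus strand: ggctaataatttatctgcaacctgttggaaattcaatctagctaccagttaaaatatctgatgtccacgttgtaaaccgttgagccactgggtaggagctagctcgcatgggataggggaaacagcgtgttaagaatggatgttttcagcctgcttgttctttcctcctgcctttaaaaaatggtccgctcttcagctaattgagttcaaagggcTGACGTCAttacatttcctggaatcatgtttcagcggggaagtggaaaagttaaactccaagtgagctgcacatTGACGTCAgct
Ciart held the E-box at 3 places, and the windows of Bhlhe40 and Tef held it once each. Over all members with a window the E-box lay in 6.43% of 171 windows of higher genes and 5.69% of 211 windows of lower genes, both near the 6.42% of all windows. The core of the hypoxia response element, ACGTG, which the E-box contains, lay in 26.3% of the windows of higher genes, 21.3% of those of lower genes and 19.3% of all windows. The AP-1 site TGAGTCA lay in 5.26%, 6.16% and 4.63% of the windows in that order, the heat shock element GAANNTTC in 2.34%, 6.64% and 8.59%, and TATAAA in 13.5%, 14.2% and 14.2%. The CRE shares were 4.09%, 3.79% and 1.83%. Median GC content moved with these sets, at 62.0% for higher genes, 56.3% for lower genes and 51.7% for all windows, and its part in the motif shares was not tested.

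Genes of the hypoxia response and glycolysis were few in the table: 5 of 48 symbols, of which 4 were higher and 1 lower. Edn1, which encodes the vasoconstrictor endothelin-1, was 9.18-fold higher in the authors' deposited table (FDR-corrected p stored as 0). Its level was 2.50 in the normoxic male, 9.69 in the susceptible male and 6.55 in the tolerant male, so the normal male was lowest and the normoxic male second lowest. Stc1, a secreted glycoprotein induced by hypoxia, was at 0.486, 2.24, 4.38 and 3.88 in the normoxic male, susceptible male, tolerant male and tolerant female. Pfkfb3, an activator of glycolysis, was at 1.05, 2.97, 2.11 and 2.63. Both genes were higher in the susceptible male, the tolerant male and the tolerant female than in the normal male. The lower member was Lox, a collagen and elastin cross-linking enzyme, at 0.423 in the normoxic male and 0.402 in the tolerant female. Ramp3, a receptor partner for adrenomedullin, was 2.44-fold lower in the authors' deposited table, and with Edn1 made up the vasoactive genes listed (2 of 45).

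All 4 listed endothelial and angiogenic genes, of 46 symbols, were higher. Angpt2, a vessel-destabilizing ligand of the Tie2 receptor on chromosome 16, 75891541 to 75942255, was 32.7-fold higher in the authors' deposited table (FDR-corrected p 0.00759). Its level was 41.9, 28.0 and 32.9 in the normoxic, susceptible and tolerant males, so the normal male alone was low. Dll4, a Notch ligand of endothelial cells, was 3.05-fold, Nrp2, a co-receptor for vascular growth factors, 2.09-fold, and Car4, a carbonic anhydrase of lung capillaries, 2.00-fold higher in the authors' deposited table. Coagulation genes (32 symbols), fuel and lipid genes (31) and ciliated cell genes (38) had no listed member.

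B and plasma cell genes formed the largest cell type group on the lower side: 12 of 32 symbols were listed and all 12 were lower in the tolerant female, with a median of 3.94-fold. Tnfrsf13c, the BAFF receptor of B cells, was 13.5-fold lower in the authors' deposited table (FDR-corrected p 0.00425), and stood at 0.0286 in the susceptible male. Ms4a1, which encodes CD20, was at 1.09 in the normoxic male, 0.132 in the susceptible male, 0.811 in the tolerant male and 0.148 in the tolerant female. Cd79b, part of the B cell receptor, was at 1.02, 0.173, 0.668 and 0.192 in the same order. Both genes were close to the normal male in the normoxic male and low in the susceptible male and the tolerant female. Cr2, a complement receptor of B cells, was at 1.30, 0.0717, 0.236 and 0.184, with the tolerant male low as well.

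Plasma cell genes had another order. Igj, the joining chain of secreted antibodies, was at 0.208 in the normoxic male, 0.0338 in the susceptible male, 0.0925 in the tolerant male and 0.389 in the tolerant female. Ighg, a heavy chain constant region, was at 0.183, 0.0462, 0.107 and 0.269. For both, the normal male was highest, the tolerant female second and the susceptible male lowest. In the authors' deposited table Blk and Fcrla were each 4.18-fold lower, Tnfrsf13b 3.02-fold, Iglc1 2.61-fold, the coactivator Pou2af1 2.37-fold and Mzb1 2.36-fold lower.

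Immunoglobulin V segments, the variable parts of antibody chains, showed the same side. The RefSeq annotation marks 41 of the members as V segments, of which 40 were lower and 1 higher. The higher one, LOC690794 on chromosome 4, was listed at 0 in the normal male, so it has no finite fold, with an FDR-corrected p of 0.0250 in the authors' deposited table. The light chain segments lay on chromosome 4 between 97143739 and 103646051 in the deposited coordinates, whose build was not given in the sources used here, and 27 of 28 were lower. The heavy chain segments lay on chromosome 6 between 140074719 and 143162170, and all 13 were lower. The median fold was 3.73 on chromosome 4 and 3.66 on chromosome 6. Over the 37 segments that could be placed in all 5 libraries, the median level was 0.154 in the normoxic male, 0.0298 in the susceptible male, 0.0586 in the tolerant male and 0.273 in the tolerant female. V segments are near-identical copies, so the folds of single segments are uncertain.

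**Figure D3:**
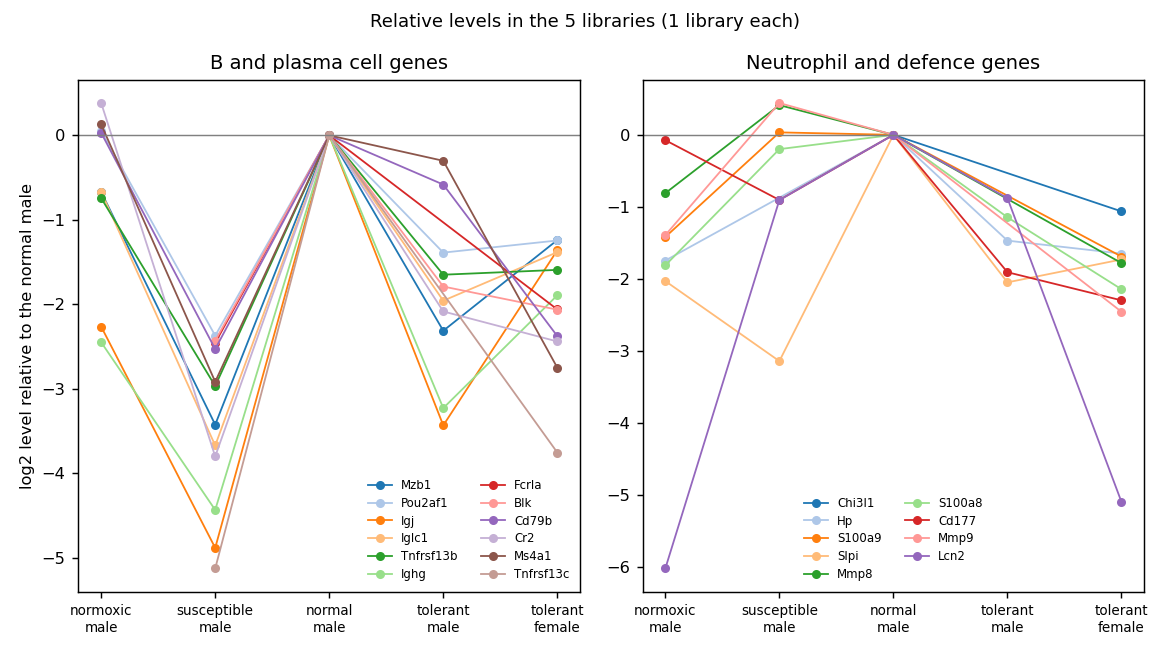
The log2 level of each listed B and plasma cell gene (left) and neutrophil and defence gene (right) in the 5 libraries is drawn relative to the normal male, which is at 0. Each library is 1 sample, lines only join the points of a gene, and a library without a point has no listed fold for it. Ms4a1 and Cd79b are low in the susceptible male and the tolerant female, Igj and Ighg are lowest in the susceptible male and second highest in the tolerant female, and Lcn2 is low in the normoxic male and the tolerant female.

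T cell genes were nearly absent from the table, with Zap70, a T cell receptor kinase, the only one of 37 symbols, 3.24-fold lower in the authors' deposited table. Of 18 lymphoid homing genes, Cxcl13, which draws B cells into follicles, stood at 0.416 in the normoxic male, 0.0130 in the susceptible male, 0.0424 in the tolerant male and 0.0808 in the tolerant female. Glycam1, a ligand for L-selectin on high endothelial venules, was at 0.565, 0.00582, 0.0126 and 0.193 in the same order. The normal male was highest and the susceptible male lowest for both, as for the antibody chain genes. The part that lymphoid tissue in the sampled piece of lung plays in these folds was not tested.

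Neutrophil and innate defence genes were listed for 9 of 35 symbols, all lower, with a median of 3.44-fold. Lcn2, an iron-scavenging lipocalin, was 34.4-fold lower in the authors' deposited table (FDR-corrected p stored as 0). Its level was 0.0153 in the normoxic male, 0.534 in the susceptible male and 0.543 in the tolerant male. The tolerant female, like the normoxic male, lay far below the other libraries. S100a8, a subunit of the neutrophil protein calprotectin, was at 0.284, 0.871, 0.452 and 0.226 in the normoxic male, susceptible male, tolerant male and tolerant female. Its partner S100a9 was at 0.374 in the normoxic male, 1.02 in the susceptible male and 0.309 in the tolerant female. The gelatinase Mmp9 was at 0.380, 1.36 and 0.182 in these libraries, and the collagenase Mmp8 at 0.570, 1.33 and 0.291. Of the libraries placed, the tolerant female was lowest for the calprotectin genes and the metalloproteinases, and the susceptible male was near or above the normal male. The neutrophil surface protein Cd177 was 4.93-fold lower, the protease inhibitor Slpi 3.32-fold, haptoglobin (Hp) 3.14-fold and Chi3l1 2.09-fold lower in the authors' deposited table.

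Airway secretory genes were listed for 6 of 32 symbols, 5 lower and 1 higher. Itln1, a lectin of mucous and mesothelial cells, was 65.0-fold lower in the authors' deposited table (FDR-corrected p 1.11e-06), with a level of 0.845 in the normoxic male, 0.0398 in the susceptible male and 0.0160 in the tolerant male. Scgb3a1, a secretoglobin of large airways, was at 0.300, 0.0910, 0.0356 and 0.229 in the normoxic male, susceptible male, tolerant male and tolerant female. Muc5b, the gel-forming mucin of submucosal glands, was at 0.568, 0.230, 0.0753 and 0.283. The normal male was highest for these genes, and the tolerant male was low. Plunc, an antimicrobial airway protein, was 27.9-fold and its relative Bpifb1 5.55-fold lower by the authors' deposited table. The higher gene was Cyp2a3a, a cytochrome P450, at 2.24-fold. The part of large airway in the sampled tissue was not tested.

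Smaller groups were listed with few members. Haemoglobin genes, markers of red cells, were lower for all 3 listed of 39 symbols, with Hbb at 1.33 in the normoxic male, 1.46 in the susceptible male and 0.301 in the tolerant female. The globins are near-identical copies, so their split is uncertain. Cell cycle genes were lower for all 4 listed of 64 symbols, led by the mitotic kinase Plk1 at 9.40-fold in the authors' deposited table, with Rrm2, Aurkb and Mcm3 between 2.64-fold and 3.49-fold. Of 72 matrix genes 3 were listed, Eln and Lox lower and the laminin Lamb1 2.12-fold higher in the authors' deposited table. Eln, which encodes elastin, was at 0.951 in the normoxic male, 1.78 in the susceptible male and 0.206 in the tolerant female. Of 44 metallothionein, antioxidant and heat shock genes 5 were listed, 4 lower (Mt2A, Gpx2, Nqo1 and Prdx1) and 1 higher (Trib3, 2.53-fold in the authors' deposited table). Mt2A, a metal-binding protein, was 9.38-fold lower in the authors' deposited table (FDR-corrected p 0.0438) and stood at 0.0214 in the normoxic male. The glucocorticoid response genes were mixed, with Dusp1 and Per1 higher and Lcn2, Mt2A and the cell cycle inhibitor Cdkn1c lower, 5 of 24 symbols.

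The remaining groups had few listed members. Il1a, an inflammatory cytokine, was the only one of 43 inflammation genes, at 0.749, 5.52, 1.49 and 2.79 in the normoxic male, susceptible male, tolerant male and tolerant female. Of 54 interferon response genes, Ifit3 was 2.04-fold higher and Ifitm1 2.15-fold lower by the authors' deposited table. The mast cell protease Mcpt2 (of 23 eosinophil and mast cell symbols) was 5.41-fold lower, Gpnmb and Ccl22 (of 44 macrophage and dendritic cell symbols) were 2.13-fold and 2.12-fold lower, and RT1-N3 (of 46 MHC symbols) was 3.92-fold lower in the authors' deposited table. Ccl22 lies on another chromosome in RefSeq, and its row here covers the locus of Ptprcap. The fold under the name Ccl22 is therefore uncertain. MHC genes are near-identical copies, so the fold of RT1-N3 is uncertain as well. Lmod1, a smooth muscle actin nucleator, and Tbx4, a mesenchymal factor of the lung, were 2.47-fold and 2.05-fold higher by the authors' deposited table (2 of 28 smooth muscle and fibroblast symbols). Xenobiotic metabolism had 3 higher genes (Cyp2e1, Cyp2a3a, Cyp2b1) and 1 lower (Inmt) of 46 symbols. Of 55 cytoskeletal scaffold genes, Akap12, Syne2 and Myo18a were higher and the filamin Flnc lower. Psmb1 (of 42 proteasome and ubiquitin genes) and Mll4 (of 62 chromatin genes) were lower, and Itln1 was the only one of 16 mesothelial symbols.

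Markers of other tissues gave little. Of 68 cardiac muscle genes only Xirp1 was listed, 3.69-fold higher with an FDR-corrected p of 0.0499 in the authors' deposited table. Nerve and glia (21 symbols) and adipocyte genes (17) had none. Of the alveolar markers, Etv5 of type 2 cells was 2.05-fold higher, and Akap5 and Cyp2b1 of the type 1 list were 2.23-fold and 2.20-fold higher by the authors' deposited table. Because the tables hold differing genes only, the levels that would check the tissue as lung cannot be read from them.

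Genes of ribosomal proteins and of oxidative phosphorylation were mostly lower, and the listed ones had short loci, with a median span of 2227.5 and 5611.5 bases against 8549 bases over all 561 genes. Of 87 ribosomal protein symbols, 14 were listed, 13 lower and 1 higher (Rpl41). The median log2 fold over all 14 was −1.40 (2.65-fold lower). Rpl6 was at 0.133 in the normoxic male, 0.0709 in the susceptible male, 0.0673 in the tolerant male and 0.0464 in the tolerant female, and Rps14 was at 0.0565, 0.0707, 0.0902 and 0.0843. For both genes the normal male stood far above all other libraries. Of 82 oxidative phosphorylation symbols 5 were lower, led by Cycs, which encodes cytochrome c, at 4.30-fold in the authors' deposited table, and Ndufv3 of complex I was 2.59-fold higher. Ribosomal proteins have many processed copies in the genome, and how reads were shared among them was not given in the sources used here.

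Locus span, from the deposited start to the deposited end, differed between the directions. The median span of the named genes was 29838.5 bases for the higher and 7988 bases for the lower ones, a ratio of 3.74. Of 43 named loci over 100 kb, 32 were higher and 11 lower, and of 57 under 2 kb, 5 were higher and 52 lower. The 10 shortest were all lower, and 9 of the 10 longest were higher. The tolerant male over the same normal male gave a ratio of 4.00, and the normal male over the normoxic and susceptible males gave 0.470 and 0.347. These comparisons share the normal male. In the tables without it the ratio was 0.744, 1.46, 0.900, 1.76 and 0.328. The part of locus length in the folds above was not tested.

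**Figure D4:**
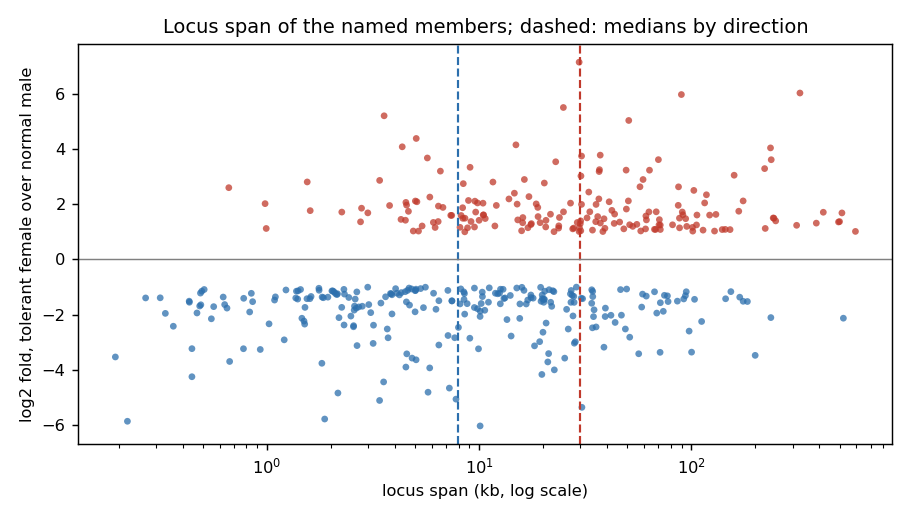
Each point is a named autosomal gene of the authors' deposited table, placed by its locus span in kilobases (log axis) and its log2 fold of the tolerant female over the normal male, with a dashed line at the median span of each direction. The higher genes (red) have a median span of 29838.5 bases and the lower genes (blue) of 7988 bases.

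At 8 loci the table holds gene models of opposite direction, of 16 loci with more than 1 row. Ppp2ca, the catalytic subunit of protein phosphatase 2A, had a model at 4.18 in the normoxic male, 4.76 in the susceptible male, 5.18 in the tolerant male and 4.75 in the tolerant female. A second model at the same place was at 0.0539, 0.0547, 0.0998 and 0.0559. In both models the normal male stood apart and the other 4 libraries lay close together. The transcription factors Zfhx3, Runx1 and Elf2, the junction protein Jam2, the intermediate filament nestin (Nes), the water channel Aqp4 and Trim33 were the other 7. How reads were assigned to the models was not given in the sources used here, so these folds are uncertain for the gene as a whole.

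**Figure D5:**
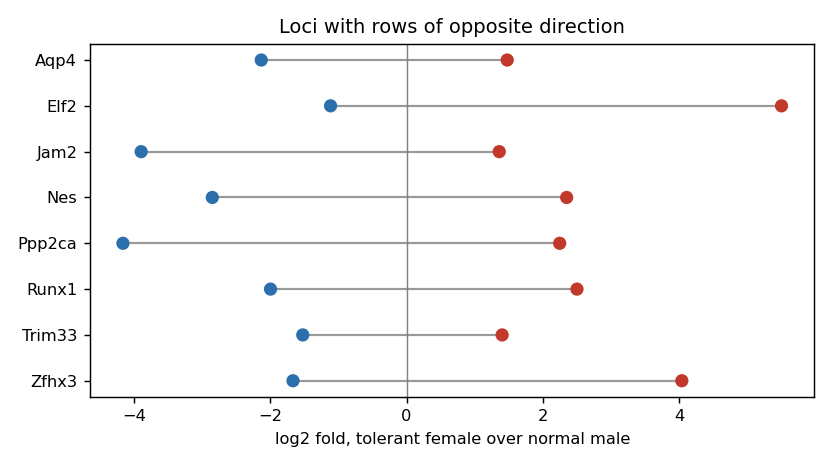
Each row is a locus with 2 gene models of opposite direction, and the points give the log2 fold of the tolerant female over the normal male for each model in the authors' deposited table. Ppp2ca spans from −4.16 to 2.25 and Elf2 from −1.11 to 5.50.

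The largest named folds lay in part outside these groups. Efcc1 and Limch1, which the authors' deposited table lists under predicted identifiers, were 141-fold and 65.1-fold higher. Efcc1 stood at 194, 165 and 109.7 in the normoxic, susceptible and tolerant males, so the normal male alone was low. Among genes with a deposited name, Akap12, a scaffold for protein kinase A on chromosome 1, 34978979 to 35068763, was 62.7-fold higher in the authors' deposited table, at 39.3 in the normoxic male and 74.0 in the tolerant male. Spry4, an inhibitor of receptor tyrosine kinase signalling, was at 6.66, 11.5, 7.46 and 17.7 in the normoxic male, susceptible male, tolerant male and tolerant female, with the tolerant female highest of the 5. Ly6al, a gene of the Ly6 family, was 36.8-fold higher in the authors' deposited table and stood at 1.98 in the normoxic male and 1.97 in the susceptible male. Zfhx3, Ccdc85a, Mmrn2, Lrat, Trps1, Pnkd and Fgf7 lay between 9.41-fold and 16.4-fold higher by the authors' deposited table. Among the lower genes, C1qtnf5, Hs1bp3, Ifit1lb, Ptprcap and Traf4 were 54.7-fold, 40.8-fold, 33.2-fold, 28.5-fold and 25.2-fold lower in the authors' deposited table. Ppp2ca, Mlc1, Zscan12, Jam2 and Dlk1 lay between 13.1-fold and 17.9-fold lower in the same table. Zfhx3, Ppp2ca and Jam2 are among the loci with a second model of opposite direction, so their folds here are uncertain. Ptprcap shares its locus with the row listed as Ccl22, which was 2.12-fold lower, so the reads of the pair cannot be split.

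Of the 435 named genes, 201 could be placed in all 5 libraries, and of these 86 were higher and 115 lower in the tolerant female. The normal male was the lowest library for 78 of the 86 and the highest for 106 of the 115. The tolerant female was the highest library for 15 of the 86 and the lowest for 16 of the 115, and in 9 and 12 of these cases the normal male was at the other end. The tolerant female but not the normal male stood at an end for 6 higher genes (Apold1, Per2, Atf3, Trib3, Cd300lg and Esm1) and 4 lower ones (Rsrp1, Lox, Id3 and Mlc1). Every listed gene already differed at least 2-fold between the normal male and the tolerant female, which by itself favours neither. Of 603 placements of the normoxic, susceptible and tolerant males, 528 (87.6%) had a listed fold against the normal male. Selecting genes in this way favours the normal male as the end library, so the count cannot show which library stood apart. Comparisons that included the normal male listed 435 to 791 named genes each, and comparisons without it listed 103 to 221. The cause of that difference was not tested. Cd300lg, a receptor of capillary endothelium, was at 0.149 in the normoxic male, 0.0569 in the susceptible male, 0.103 in the tolerant male and 2.40 in the tolerant female, so the tolerant female and the normal male stood above the other 3. Esm1, a proteoglycan of endothelial tip cells, was at 0.504, 1.06, 1.38 and 2.21.

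A further view comes from genes listed in all 3 tables that link the tolerant female, the normal male and the normoxic male. On the higher side these were Spry4, Edn1, Apold1, Pdgfb, Cd300lg and Spns2, and on the lower side Dmbt1. Pdgfb, a growth factor for mural cells, was at 6.69 in the normoxic male, 4.60 in the susceptible male, 5.54 in the tolerant male and 2.93 in the tolerant female. Spns2, an endothelial transporter of sphingosine-1-phosphate, was at 4.76, 3.66, 2.24 and 2.19 in the same order. For both, the tolerant female lay between the normal male and the normoxic male. Dmbt1, a mucosal defence protein, was at 2.01 in the normoxic male and 0.372 in the tolerant female.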

How the data were processed

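Lung RNA of 5 rats, 1 library in each group, was measured, and the libraries enter as the authors' deposited tables of differing genes between pairs of libraries. Per the file headers, each deposited row holds a symbol, a signed fold that takes negative values and is treated as a score, a p-value corrected for the false discovery rate, the chromosome record, the start and the end. Per the labels' protocols, libraries were made with a TruSeq kit. The aligner, the counting, the genome build and the test were not given in the sources used here. Counts were not used here, since the rows carry none, and with depth unknown a level has no counting interval. The deposited tables hold only genes with an absolute fold of at least 2 and a p-value under 0.05, as checked on the rows. Of the 11 tables, 2 were copies of others and 9 were used.

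Autosomal rows were kept, 1 for each symbol and locus, with the largest absolute fold where rows of a symbol overlapped. Of 359 deposited single gene symbols, 356 were found in RefSeq (GRCr8) and 7 lay on another chromosome there, and 76 of 202 predicted or unnamed identifiers took a RefSeq name from the same chromosome. Levels were chained from the folds over libraries, with a largest gap of 2.49e-13 on the log2 scale between chains of the same gene against a tolerance of 0.001, and the chaining was tested on simulated data. No test of the groups was run, since replicates are lacking. The rule for named genes took the 15 largest finite folds on each side among deposited symbols that are not predicted and lie on the same chromosome in RefSeq, the listed members of 37 gene lists, genes at 0 in 1 library and genes listed in all 3 linking tables. Some list members are given by count only, and Efcc1, Limch1 and Ifitm2 were added after their values were seen. The list of carriers and channels is not reported here. The members and the lists were chosen with earlier results of these data known. Python 3.11.15, pandas 2.3.3, numpy 2.4.6 and matplotlib 3.10.9 were used.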

Additional observations from a re-analysis of the deposited data

Results flagged for a closer look

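In the authors' deposited tables Spry4 and Edn1 moved in opposite directions against the shared normoxic male. Spry4 was 2.66-fold higher in the tolerant female and 6.66-fold lower in the normal male than in the normoxic male. Edn1 was 3.68-fold higher in the tolerant female and 2.50-fold lower in the normal male. The difference was not tested, since each group is 1 library, and both comparisons share the normoxic library.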

How the results depend on the processing

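The effect of 8 alternatives was tried for the counts, the share of higher genes and the locus span. With a fold of at least 4 in place of 2, 202 genes were listed, 65 higher and 137 lower, and of the gene list members 11 were higher and 27 lower. Without predicted and unnamed genes, 359 were listed and 198 were lower, 44.8% of the listed genes were higher, and the ratio of median locus span, higher over lower, was 3.01 in place of 7.47 over all genes. These settings keep fewer genes by construction. The p limit, the choice of row, loci with several symbols, symbols on another chromosome, infinite folds and the X chromosome moved none of these values by over 1.5 times. Of 15 list counts with at least 3 genes, 12 moved with a fold of at least 4, among them the immediate-early genes (1 of 9 left), and 1 without predicted genes. The smaller row of each locus moved no count by over 1.5 times but took the median fold of the clock genes from 12.2 to 4.01. No paired analysis was possible because each group is 1 library. The number of genes tested and the depth limit what an absent gene can show.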
